A study of Mus musculus with 18 samples.

Results

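The transcripts of the enzymes that make and break glucose were compared in the kidney cortex of 5 mouse strains with different susceptibility to antibody-induced nephritis. The genes taken were Pck1, G6pc, Fbp1 and Pcx of gluconeogenesis, Hk1, Pfkl and Pklr of glycolysis, and Ldha and Ldhb, which interconvert pyruvate and lactate. Every array probe carrying one of these 9 gene symbols was used, which gave 13 probes of 8 genes among the 46643 probes of the table that names its genes (34509 gene symbols). No probe there carried the symbol Ldhb, so this gene was not analysed here. The mice were 2 months old, 3 from each strain by the study's statement, and all had been challenged with anti-GBM antibodies. These are antibodies against the glomerular basement membrane. B6 and BALB/C are the strains that the study calls resistant to anti-GBM-GN, the nephritis these antibodies cause, and DBA1, 129/svj, and NZW are those it calls sensitive. No unchallenged mice are among the 18 arrays, so a difference between strains that existed before the challenge cannot be told apart from a difference in the response to it.

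The proximal tubule of the kidney cortex is, beside the liver, the main site at which the body makes new glucose, from lactate, glutamine, and glycerol. Pyruvate carboxylase (Pcx) turns pyruvate into oxaloacetate, cytosolic phosphoenolpyruvate carboxykinase (Pck1) turns oxaloacetate into phosphoenolpyruvate, fructose-1,6-bisphosphatase (Fbp1) reverses the step of phosphofructokinase, and the catalytic subunit of glucose-6-phosphatase (G6pc) releases free glucose. In the opposite direction, hexokinase 1 (Hk1), the liver-type phosphofructokinase (Pfkl), and the liver and red cell pyruvate kinase (Pklr) catalyse the steps of glycolysis that cannot run backwards under cell conditions.

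Probes of Pck1, Fbp1, and G6pc were lower in B6 than in NZW, as given below, and the 250 bases before the start of each of these genes are therefore shown, 5′ to 3′ on the strand of the gene, from RefSeq promoters of the mouse build GRCm38.p6. Capitals mark a match to a motif. Pck1 lies on the plus strand (chr2:173152823-173153072), G6pc on the plus strand (chr11:101367466-101367715), and Fbp1 on the minus strand (chr13:62888283-62888532). The start used for Fbp1 lies inside the annotated span of the gene, which reaches to 62888298, so the end of its stretch nearest the start overlaps that span.
Pck1: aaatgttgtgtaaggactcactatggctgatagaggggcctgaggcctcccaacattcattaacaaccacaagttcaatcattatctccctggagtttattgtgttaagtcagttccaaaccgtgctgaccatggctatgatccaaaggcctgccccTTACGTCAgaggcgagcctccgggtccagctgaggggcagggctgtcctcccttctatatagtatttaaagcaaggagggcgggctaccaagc
G6pc: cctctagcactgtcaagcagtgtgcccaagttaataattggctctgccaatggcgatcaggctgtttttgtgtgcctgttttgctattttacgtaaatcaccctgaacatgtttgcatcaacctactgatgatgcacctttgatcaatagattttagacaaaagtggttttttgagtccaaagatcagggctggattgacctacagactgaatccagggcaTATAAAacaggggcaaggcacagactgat
Fbp1: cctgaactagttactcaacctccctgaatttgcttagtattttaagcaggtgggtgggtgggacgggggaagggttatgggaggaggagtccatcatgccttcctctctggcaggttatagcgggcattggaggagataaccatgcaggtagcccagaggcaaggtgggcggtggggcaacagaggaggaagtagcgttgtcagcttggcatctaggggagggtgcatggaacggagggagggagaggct
The motifs searched on both strands were TTACGTCA and TGACGTCA, both forms of the cAMP response element, the TATA box TATAAA, and the E-box CACGTG. Pck1 had TTACGTCA at 93 to 86 bases before its start, a motif found in 0.447% of the 32851 RefSeq promoters read over the same length. G6pc had TATAAA at 29 to 24 bases before its start, a motif found in 12.4% of them. Fbp1 had none of the 4. TGACGTCA was found in 1.55% and CACGTG in 6.02% of all promoters, and no match in these genes overlapped another. Some members that were not called between B6 and NZW had matches too. These were Ldha (TGACGTCA and CACGTG), Pklr (TATAAA), and Pcx (CACGTG), whereas Hk1 and Pfkl had none. The arrays measured transcripts only, so these matches describe the sequence and say nothing about binding. The sequence is that of the reference genome and not of the other strains.

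The signals were laid out in 2 tables, one of BALB/C, DBA1, and 129/svj and one of B6 and NZW, which were normalized separately, and strains were compared within a table. Array 4 of each strain of the first table was taken as a repeat of mouse 1 and averaged with array 1. The headers do not mark it as a repeat, so this is an assumption. Median signals per array lay between 118 and 152 in the first table and between 81.1 and 89.8 in the second, and the share of probes detected ran from 30.5% to 36.4%. Through their search keys, 9 of the 13 probes were matched to 6 rows of the first table, and the other 4, those of Ldha and Pfkl and 2 of Pklr, were read in B6 and NZW only. G6pc and Fbp1 matched 1 probe to 1 row, whereas Pck1, Pcx, and Hk1 each had 2 probes that shared 1 row, and the key does not tell which of them the row corresponds to. Defining markers of the proximal tubule were detected in both tables (11 of 11 genes measured in the first, and 13 of 14 in the second, where Slc7a13 was not detected). In whole cortex, fewer cells of a type and less RNA per cell cannot be told apart.

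Between B6 and NZW, the gluconeogenic enzymes Fbp1, Pck1, and G6pc were lower in the resistant strain B6, whereas Pcx and the glycolytic enzymes did not pass the test. Of the 13 probes, 9 were detected in at least 3 mice and tested, and 3 were called at an adjusted p below 0.05 in limma, all lower in B6. Of all 16766 probes tested, 18.9% were called, and 9.61% were called lower in B6. The median log2 difference, B6 minus NZW, was -0.25 over the 9 probes and -0.04 over all probes tested.

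Pcx, the first enzyme of the pathway, had log2 signals of 10.33, 10.47, and 10.47 in B6 and of 10.19, 10.44, and 10.34 in NZW at its brighter probe, ILMN_2748361. The ranges overlapped. The difference, B6 minus NZW, was 0.10 (SE 0.11, 95% interval -0.15 to 0.36), with an adjusted p of 0.57 in limma. The other Pcx probe, ILMN_2427206, was detected in none of these mice.

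Pck1, often taken as the rate-limiting enzyme of gluconeogenesis, was read by 2 probes. At ILMN_1213632 the log2 signals were 9.04, 9.21, and 9.06 in B6 and 9.89, 9.75, and 9.32 in NZW, so that every NZW mouse was above every B6 mouse. The difference, B6 minus NZW, was -0.55 (SE 0.16), a 1.46-fold lower level in B6, with an adjusted p of 0.041 in limma. At ILMN_2777986 the log2 signals were 9.35, 9.44, and 9.43 in B6 and 10.70, 10.04, and 9.51 in NZW. Again the groups did not overlap, but NZW mouse 3 lay close to B6, and the difference of -0.68 (SE 0.25) had an adjusted p of 0.10 in limma. Both probes placed the NZW mice in the same order, and their correlation over the 6 mice was 0.94 (0.91 after the strain means were removed). The call at ILMN_1213632 was lost when any single mouse was left out except NZW mouse 3, with adjusted p of 0.080 to 0.12 in limma, and without NZW mouse 3 it was 0.0085. At ILMN_2777986, the difference without NZW mouse 3 was -0.96 with an adjusted p of 0.017 in limma.

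Fbp1 showed the difference between B6 and NZW that held under the most settings. Its log2 signals were 11.81, 11.88, and 11.96 in B6 and 12.43, 12.47, and 12.66 in NZW, ranges that are narrow and do not overlap. The difference, B6 minus NZW, was -0.63 (SE 0.11, 95% interval -0.89 to -0.38), a 1.55-fold lower level in B6 with an adjusted p of 0.0046 in limma. It was called under all 9 alternative settings and with each of the 6 mice left out (adjusted p at most 0.027 in limma).

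G6pc, the enzyme that releases glucose, had log2 signals of 13.95, 14.09, and 13.88 in B6 and of 14.29, 14.32, and 14.62 in NZW, again without overlap. The difference, B6 minus NZW, was -0.44 (SE 0.13), a 1.35-fold lower level in B6 with an adjusted p of 0.045 in limma. The call was lost with any 1 of the 6 mice left out (adjusted p of 0.052 to 0.15 in limma, differences of -0.49 to -0.33). NZW mouse 3, the lowest of its strain for Pck1, was the highest for both G6pc and Fbp1. Over the 6 mice, G6pc and Fbp1 had a correlation of 0.92 (0.62 after the strain means were removed), and Pck1 at ILMN_1213632 and Fbp1 one of 0.70 (-0.79 after the strain means were removed). These correlations are descriptions over few mice of 1 table.

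Part of the markers of the proximal tubule, the cells that carry out gluconeogenesis, were lower in B6 as Fbp1, Pck1, and G6pc were. Of 13 such genes tested between B6 and NZW, 4 were called lower in B6 (Slc5a12, Cubn, Miox, and Acsm2) and 0 higher. The median difference was -0.22. Of all probes tested, 18.9% were called and 9.61% were called lower in B6. The other markers were not called, among them Slc27a2 and Slc13a3 at -0.01 (adjusted p of 0.95 and 0.97 in limma). The summed normalized signal of these 13 genes was 114188 to 128508 in B6 and 135712 to 146345 in NZW, without overlap. The summed signal of 11 macrophage markers was 4129 to 7652 in B6 and 3193 to 3942 in NZW, also without overlap, with 1 of 11 genes (C1qb) called higher in B6. Of 9 markers of tubule injury, 3 were higher (Lcn2, Spp1, and Timp1) and 3 lower (Havcr1, Krt8, and Krt18) in B6, and their summed signal overlapped, at 11458 to 21057 in B6 and 10935 to 12803 in NZW. The part of these cells in the difference of the gluconeogenic enzymes was not tested.

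**Figure D1:**
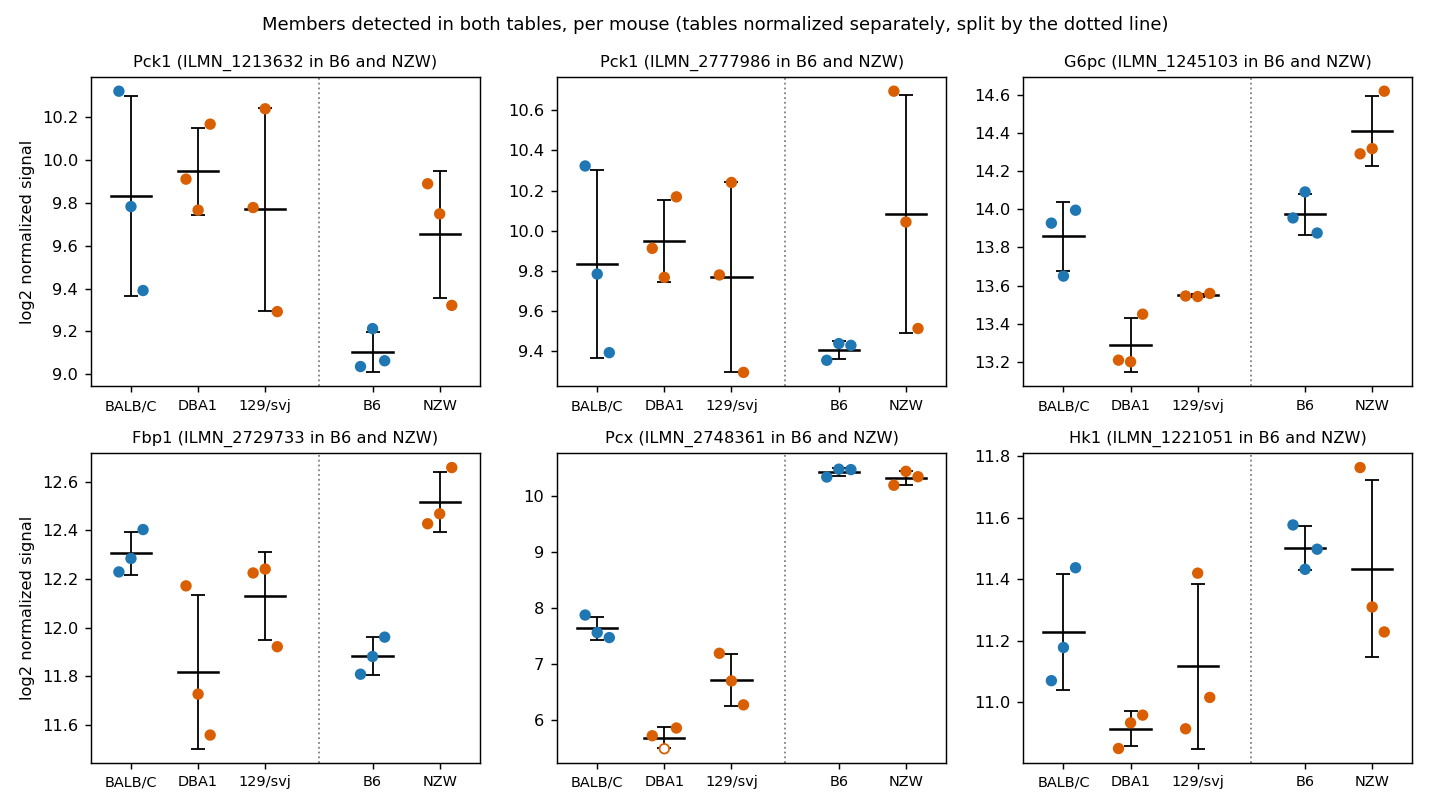
Log2 normalized signal of each mouse (points, blue for the strains called resistant and orange for those called sensitive, open where not detected) for the 6 matched probe pairs detected in both tables, out of 9 pairs in all, with the mean (wide bar) and SD (whiskers, n = 3 mice). The 2 tables are split by the dotted line and their levels cannot be compared, and in both Pck1 panels the first table shows the same row. All 3 NZW mice were above all 3 B6 mice for Pck1, G6pc, and Fbp1.

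Of the glycolytic enzymes, none passed the test between B6 and NZW, although Pfkl did under 3 of 8 alternative settings. Hk1, which traps glucose as glucose-6-phosphate, had log2 signals of 11.58, 11.43, and 11.50 in B6 and of 11.76, 11.31, and 11.23 in NZW at ILMN_1221051. The NZW range enclosed that of B6, and the difference, B6 minus NZW, was 0.07 (95% interval -0.28 to 0.41, adjusted p = 0.80 in limma). Its other probe, ILMN_2644025, was detected in 1 of the 6 mice and was not tested between these strains.

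Pfkl, a subunit of phosphofructokinase, had log2 signals of 11.42, 11.28, and 11.39 in B6 and of 11.55, 11.67, and 11.63 in NZW. Every B6 mouse was below every NZW mouse, but the difference of -0.25 (SE 0.10, 95% interval -0.49 to -0.02) had an adjusted p of 0.13 in limma. Pfkl was called without background correction (adjusted p = 0.049), with 75th percentile scaling (adjusted p = 0.044), and with a robust variance trend (adjusted p = 0.048 in limma).

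Pklr, which makes pyruvate from phosphoenolpyruvate, was measured by 3 probes, and only ILMN_2704286 was detected. Its log2 signals were 6.94, 7.10, and 6.47 in B6 and 7.21, 6.76, and 7.12 in NZW, which overlapped (difference -0.19, 95% interval -0.62 to 0.23, adjusted p = 0.52 in limma). Red cells also express Pklr, and the summed signal of 6 erythrocyte markers overlapped, at 50061 to 94851 in B6 and 61690 to 82158 in NZW, with 1 of the 6 (Hbb-b2) called lower in B6. The row of Pklr in the first table was detected on none of the 12 arrays, so Pklr was not tested in BALB/C, DBA1, and 129/svj.

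Ldha, the lactate dehydrogenase subunit that predominates in glycolytic tissue, had log2 signals of 13.58, 13.51, and 13.34 in B6 and of 13.59, 13.55, and 13.46 in NZW. These lay almost on top of each other, with a difference of -0.06 (95% interval -0.31 to 0.19, adjusted p = 0.76 in limma).

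**Figure D2:**
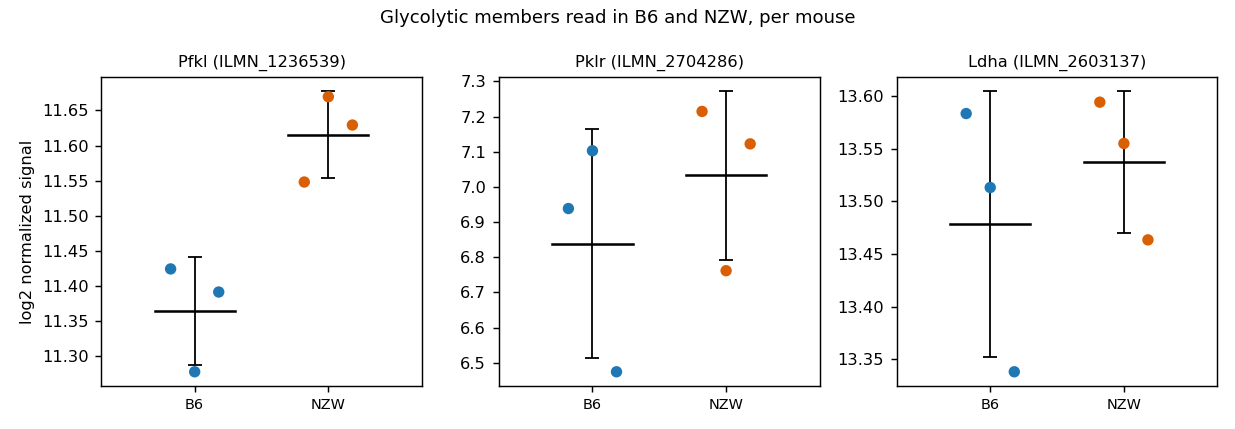
Log2 normalized signal of each mouse for the detected probes of Pfkl, Pklr, and Ldha in B6 (blue) and NZW (orange), with the mean (wide bar) and SD (whiskers, n = 3 mice). The vertical scales differ between panels. The strains separate for Pfkl only, where the difference of -0.25 did not pass the test.

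In the other table, Pcx and G6pc were higher in BALB/C than in DBA1, and Pcx was lower in DBA1 than in 129/svj. For each of the 3 strain pairs, 5 of the 6 rows were tested, all but that of Pklr. Between BALB/C and DBA1, 2 of the 5 were called in limma, both higher in BALB/C, against 5.75% of the 15818 probes tested (2.86% called higher in BALB/C). Between BALB/C and 129/svj, 0 of the 5 were called in limma, against 4.83% of all probes, and 1 of the 5 had an unadjusted p below 0.05 (2 of 5 with the methods' t-test, which also called 0 after adjustment). Between DBA1 and 129/svj, strains that are both sensitive, 1 of the 5 was called in limma, lower in DBA1, against 4.49% of all probes (2.31% called lower in DBA1).

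Pcx showed the widest spread among these strains. Its log2 signals were 7.87, 7.56, and 7.47 in BALB/C, 7.19, 6.70, and 6.27 in 129/svj, and 5.72, 5.49, and 5.86 in DBA1. The strains did not overlap and followed the order BALB/C, 129/svj, DBA1. BALB/C exceeded DBA1 by 1.95 (SE 0.23, 95% interval 1.44 to 2.46), a 3.85-fold difference with an adjusted p of 0.00059 in limma. DBA1 minus 129/svj was -1.03 (SE 0.23, adjusted p = 0.030 in limma), and BALB/C minus 129/svj was 0.91 (SE 0.23, adjusted p = 0.052 in limma). The row is dim: it was detected on 10 of 12 arrays and in 2 of the 3 DBA1 mice, and its raw signal was 149 to 358. Without background correction, BALB/C minus DBA1 was 0.89 (adjusted p = 0.0011), BALB/C minus 129/svj was 0.48 (adjusted p = 0.040), and DBA1 minus 129/svj was -0.41 and no longer called (adjusted p = 0.085 in limma). The difference between BALB/C and DBA1 stayed called with each of the 9 mice of the table left out. The difference between DBA1 and 129/svj lost its call with any 1 of 5 mice left out (DBA1 mouse 1 or 2, 129/svj mouse 1 or 2, or BALB/C mouse 2), with adjusted p of 0.055 to 0.13 in limma, and that between BALB/C and 129/svj gained one without 129/svj mouse 1 (adjusted p = 0.017) or DBA1 mouse 3 (adjusted p = 0.0498).

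G6pc had log2 signals of 13.93, 13.65, and 14.00 in BALB/C, 13.55, 13.54, and 13.56 in 129/svj, and 13.21, 13.20, and 13.45 in DBA1. The strains again did not overlap and stood in the same order as for Pcx. BALB/C exceeded DBA1 by 0.57 (SE 0.14), a 1.49-fold difference with an adjusted p of 0.045 in limma. Its neighbours in that order did not pass the test, with BALB/C minus 129/svj at 0.31 (adjusted p = 0.34) and DBA1 minus 129/svj at -0.26 (adjusted p = 0.49 in limma). The call between BALB/C and DBA1 remained with 2 of the 9 mice of the table left out in turn, DBA1 mouse 3 and 129/svj mouse 3, and was lost with each of the other 7 (adjusted p of 0.055 to 0.15 in limma).

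Fbp1 had log2 signals of 12.23, 12.28, and 12.40 in BALB/C, 12.22, 12.24, and 11.92 in 129/svj, and 12.17, 11.73, and 11.56 in DBA1. All BALB/C mice were above all DBA1 mice, although DBA1 mouse 1 lay within 0.06 of BALB/C mouse 1, and the 129/svj mice overlapped both strains. No pair passed the test, the largest difference being BALB/C minus DBA1 at 0.49 (SE 0.18, adjusted p = 0.17 in limma).

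Pck1 spread more within strains than between them. Its log2 signals were 10.32, 9.78, and 9.39 in BALB/C, 9.78, 10.24, and 9.29 in 129/svj, and 9.91, 9.77, and 10.17 in DBA1. All 3 ranges overlapped. The differences were -0.12 for BALB/C minus DBA1, 0.06 for BALB/C minus 129/svj, and 0.18 for DBA1 minus 129/svj (SE 0.28 for each, adjusted p of at least 0.88 in limma). The 95% interval of BALB/C minus DBA1 reached from -0.74 to 0.51, so differences of the size seen between B6 and NZW lay within it.

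Hk1 had log2 signals of 11.07, 11.18, and 11.44 in BALB/C, 10.91, 11.42, and 11.02 in 129/svj, and 10.85, 10.93, and 10.96 in DBA1. All DBA1 mice were below all BALB/C mice, with a difference of 0.32 (SE 0.17, adjusted p = 0.37 in limma) that did not pass the test.

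Summed markers of other cells also separated BALB/C from DBA1, in a comparison where 5.75% of all probes tested were called. The summed signal of 5 macrophage markers was 471 to 766 in BALB/C and 1225 to 2303 in DBA1, and Cd14 alone of the 5 was called (lower in BALB/C). The sum of 8 markers of the loop, distal tubule, and collecting duct was 23981 to 26754 in BALB/C and 17436 to 22477 in DBA1, with Calb1 and Pvalb called higher in BALB/C. The sum of 4 markers of tubule injury was 180 to 241 in BALB/C and 273 to 480 in DBA1, with 0 of the 4 called. The sum of the proximal tubule markers overlapped, at 69826 to 73719 in BALB/C and 66908 to 76860 in DBA1, and 0 of its 11 genes were called in limma. The part of these cells in the differences of Pcx and G6pc was not tested.

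**Figure D3:**
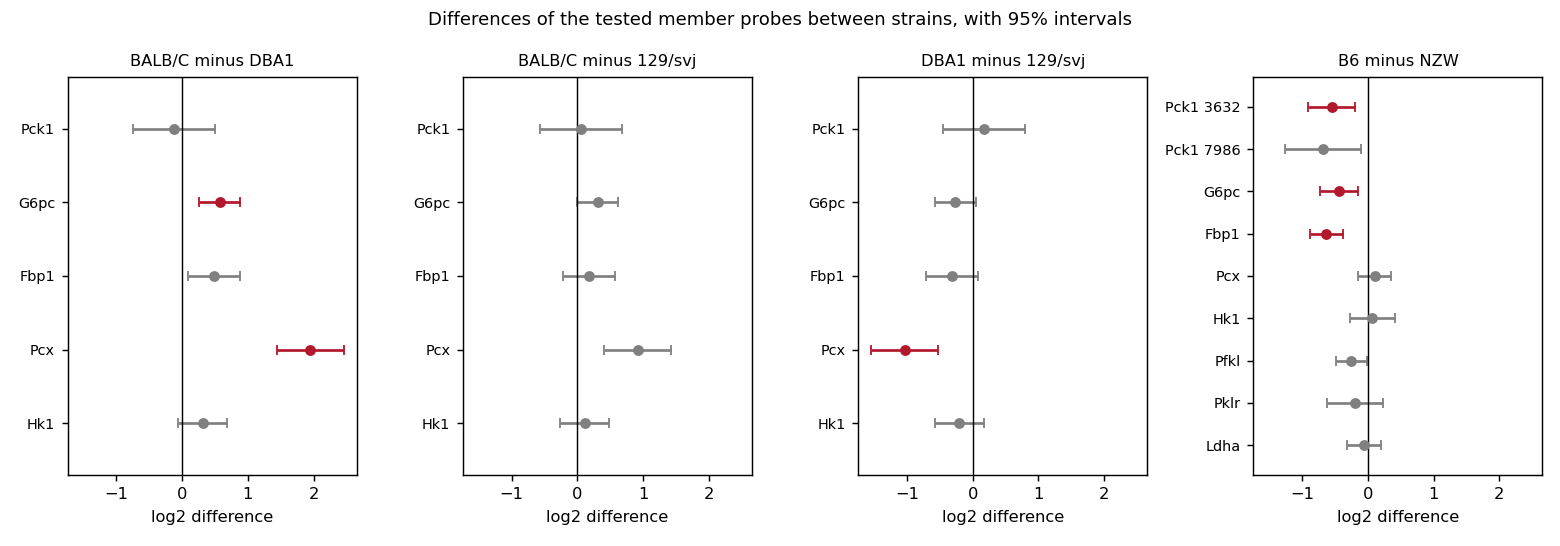
Log2 difference of every tested probe of the members in the 4 comparisons of strains within a table (points, with 95% intervals from limma). Red marks an adjusted p below 0.05, and the 4 digits after Pck1 are the last of its probe names. Pcx and G6pc lie above 0 in BALB/C minus DBA1 (1.95 and 0.57), and Fbp1, G6pc, and Pck1 at ILMN_1213632 are called in B6 minus NZW (-0.63, -0.44, and -0.55). The intervals of Pck1 at ILMN_2777986 and of Pfkl also lie below 0 there, without a call. Pcx is also called in DBA1 minus 129/svj (-1.03). Without a call, the intervals of Fbp1 in BALB/C minus DBA1 and of Pcx in BALB/C minus 129/svj lie above 0.

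The study contrasts resistant with sensitive strains, and this contrast was taken as the mean of the differences within the tables, namely B6 minus NZW and BALB/C minus the average of DBA1 with 129/svj. Of the 9 matched pairs of the members, 8 were tested, and 2 were called higher in the resistant strains, both of Pcx and sharing 1 row of the first table, against 12.8% of the 12011 pairs tested being called and 6.98% being called higher. Fbp1, G6pc, Pck1, and Hk1 were not called.

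The resistant strains exceeded the sensitive ones in Pcx by 0.77 (SE 0.13, adjusted p = 0.00062 in limma) with ILMN_2748361. The pair of ILMN_2427206, a probe detected in no B6 or NZW mouse, passed the filter only through the shared row, and its call repeats that row. In the shared row BALB/C minus the mean of its sensitive strains was 1.43, whereas B6 minus NZW was 0.10 at ILMN_2748361. Without background correction the mean for ILMN_2748361 was 0.39. The average therefore comes almost wholly from the dim row of the first table.

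Fbp1 had a mean difference of -0.15 (SE 0.10, adjusted p = 0.40 in limma) and G6pc one of 0.00 (SE 0.09, 95% interval -0.19 to 0.19, adjusted p = 0.99 in limma), and the tables went opposite ways. Against the sensitive strains of its table, BALB/C had a difference of 0.33 in Fbp1, and B6 had one of -0.63. For G6pc these values were 0.44 and -0.44. Pck1 had mean differences of -0.29 and -0.35 with its 2 probes (adjusted p of 0.30 and 0.28 in limma). Hk1 had 0.14 with ILMN_1221051 and 0.27 with ILMN_2644025 (adjusted p of 0.47 and 0.15 in limma). ILMN_2644025 was detected in 1 of the 6 mice of B6 and NZW. Its pair passed the filter only through the shared row, and its B6 minus NZW of 0.32 rests on values near the background.

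The difference between the tables' differences was tested in the same fit, as BALB/C minus its sensitive strains less B6 minus NZW. Of the 8 pairs, 4 were called in limma, all higher, against 11.4% of all pairs (4.95% called higher). The 4 are Fbp1, G6pc, and both pairs of Pcx, which share 1 row, and the pair of ILMN_2427206 has only undetected values on the side of B6 and NZW. The value was 0.97 for Fbp1 (SE 0.20, adjusted p = 0.0046), 0.88 for G6pc (SE 0.18, adjusted p = 0.0034), and 1.33 for Pcx at ILMN_2748361 (SE 0.25, adjusted p = 0.0023 in limma). Without background correction the value for Pcx was 0.59 (adjusted p = 0.0084 in limma). Pck1 was not called at 0.52 and 0.65 (95% intervals -0.17 to 1.22 and -0.17 to 1.47). The strains differ between the tables, so the table and the strain cannot be told apart in this test. For Pcx, the probe that the shared row corresponds to is not known either.

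**Figure D4:**
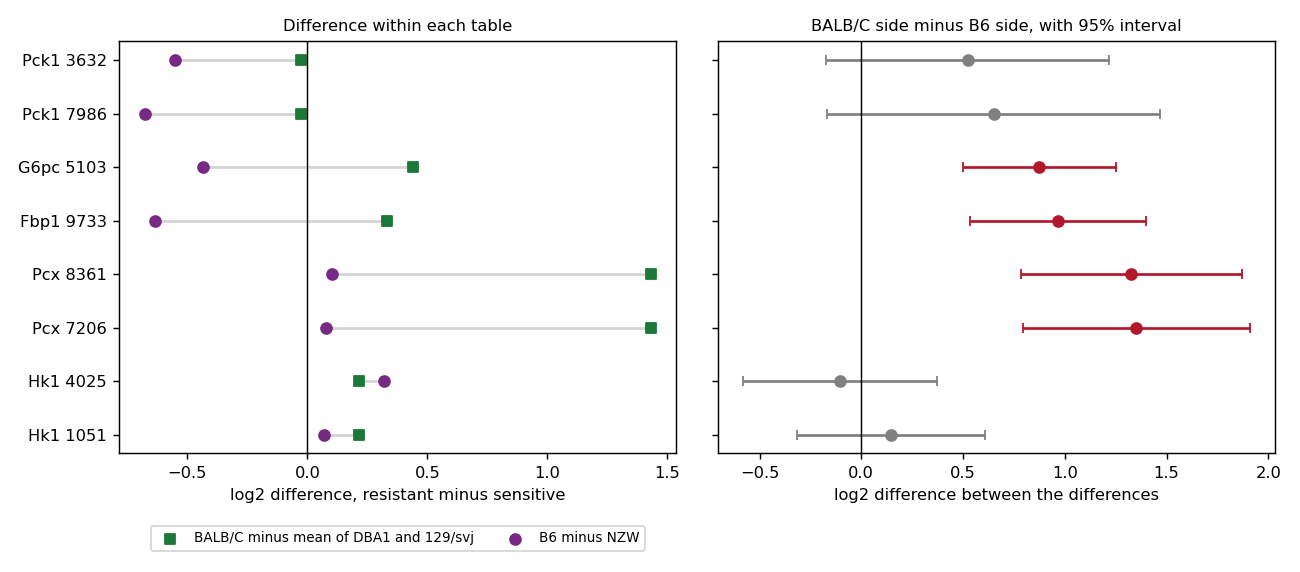
Left, log2 difference between resistant and sensitive strains within each table for the 8 tested pairs (green squares for BALB/C minus the mean of DBA1 and 129/svj, purple circles for B6 minus NZW). Right, the difference between these values with its 95% interval, red where the adjusted p was below 0.05. G6pc and Fbp1 lie on opposite sides of 0 in the tables (0.44 against -0.44, and 0.33 against -0.63), and the digits after each gene are the last of its probe name. The pair of Pcx with ILMN_2427206 has no detected value in B6 or NZW, and that of Hk1 with ILMN_2644025 has 1 of 6.

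Other genes of the pathway were read from 3 lists. Of all 16766 probes tested between B6 and NZW, 18.9% were called. Of 32 other enzymes of glycolysis and gluconeogenesis, 24 were tested between B6 and NZW, and 1 was higher (Pkm2) and 3 lower (Fbp2, Ldhd, and Pgk1) in B6, with a median difference of -0.05. Fbp2, the second fructose-1,6-bisphosphatase, was lower in B6 as Fbp1 was. The log2 signals of Fbp2 were 11.71, 11.53, and 11.67 in B6 and 12.41, 12.36, and 12.39 in NZW, without overlap, and the difference was -0.75 (SE 0.10, adjusted p = 0.0012 in limma). Ldhd, which oxidises D-lactate, was lower in B6 by a difference of -0.56 (SE 0.11, adjusted p = 0.0066 in limma).

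Of 25 genes that supply substrate to gluconeogenesis, 23 were tested between B6 and NZW, beside the 18.9% called of all probes. In B6, 2 were higher (Slc38a3 and Slc1a5) and 2 lower (Pdk2 and Pdk3), with a median difference of -0.10. Slc38a3, a glutamine transporter, was higher in B6 by 0.67 (SE 0.16, adjusted p = 0.020 in limma), and Pdk2, a kinase that inhibits pyruvate dehydrogenase, had a difference of -0.58 (SE 0.12, adjusted p = 0.0098 in limma). Of 22 regulators, 12 were tested, and 0 were higher and 2 lower (Ppara and Crtc2) in B6, with a median of -0.06. Ppara, a nuclear receptor of the fasting response, had the largest difference among the called genes of the 3 lists in this comparison, at -1.23 (SE 0.21, adjusted p = 0.0042 in limma). By mouse, its log2 signals were 8.59, 8.07, and 8.24 in B6 and 9.18, 9.96, and 9.46 in NZW, and all NZW mice were above all B6 mice.

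**Figure D5:**
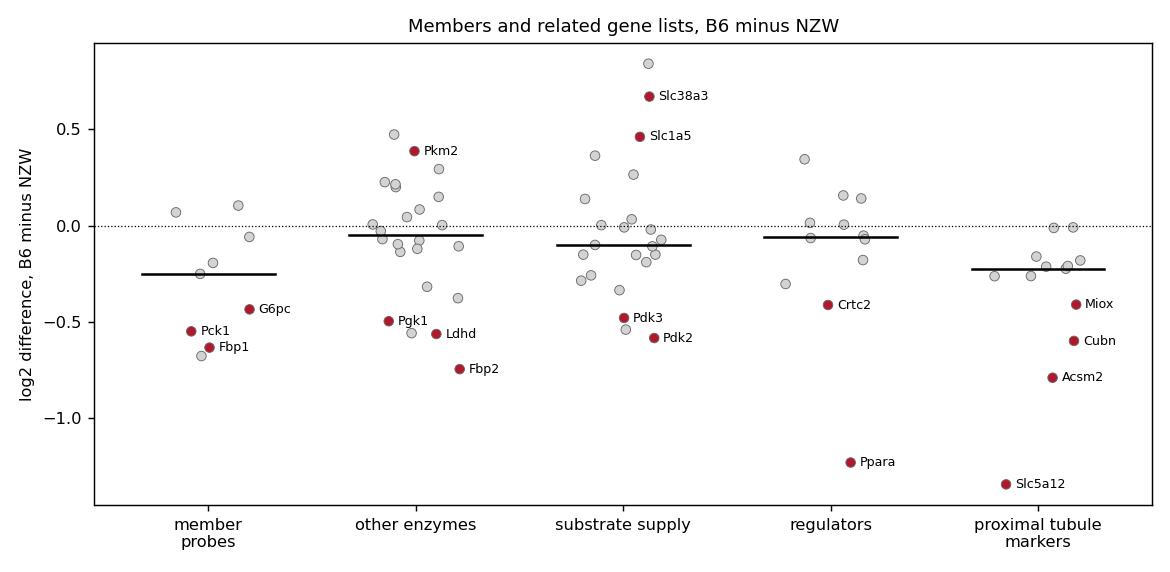
Log2 difference, B6 minus NZW, of the 9 tested member probes and of the tested genes of the 3 pathway lists and the proximal tubule markers (1 point per gene in the lists, black bars for medians). Red marks an adjusted p below 0.05 and only these are named. The medians were -0.25 for the member probes, -0.05, -0.10, and -0.06 for the other enzymes, substrate supply, and regulators, and -0.22 for the proximal tubule markers.

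These lists were also read in the table of BALB/C, DBA1, and 129/svj. Of all 15818 probes tested there, 5.75% were called in BALB/C against DBA1, 4.83% in BALB/C against 129/svj, and 4.49% in DBA1 against 129/svj. Of 12 other enzymes, Adpgk, an ADP-dependent glucokinase, was called higher in BALB/C than in DBA1 by 1.05 and than in 129/svj by 0.91 (SE 0.15 for both, adjusted p of 0.0022 and 0.0054 in limma), and 0 were called between DBA1 and 129/svj. Of 11 genes of substrate supply, Slc37a4 was called in BALB/C against DBA1 and in DBA1 against 129/svj, and Pdk1 was lower in BALB/C and in DBA1 than in 129/svj. Of 5 regulators, 0 were called in any of the 3 comparisons in limma. Slc37a4 carries glucose-6-phosphate to the glucose-6-phosphatase of the endoplasmic reticulum and was named after its values were seen. The log2 signals of Slc37a4 were 11.45, 11.46, and 10.99 in BALB/C, 11.37, 10.84, and 10.70 in 129/svj, and 9.94, 9.68, and 9.93 in DBA1. DBA1 stood apart from both other strains, with a difference of 1.45 for BALB/C minus DBA1 (SE 0.21, adjusted p = 0.0021) and of -1.12 for DBA1 minus 129/svj (SE 0.21, adjusted p = 0.011 in limma).

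In the mean over both tables, 3 genes were called in limma among 14 other enzymes, 12 genes of substrate supply, and 7 regulators tested, beside the 12.8% called of all pairs. Irs1, an adaptor of the insulin receptor, was higher in the resistant strains by 0.49 (SE 0.12, adjusted p = 0.015 in limma). For Irs1, no strain pair within a table was called. Its differences were 0.34 for B6 minus NZW, 0.56 for BALB/C minus DBA1, and 0.69 for BALB/C minus 129/svj. Their adjusted p were 0.10, 0.18, and 0.12 in limma. Adpgk was higher in the resistant strains by 0.43 (SE 0.08, adjusted p = 0.0025 in limma). Fbp2 had a difference of -0.34 (SE 0.10, adjusted p = 0.045 in limma), which came from B6 minus NZW (-0.75), since BALB/C differed from DBA1 by 0.40 and from 129/svj by -0.26 (adjusted p of 0.31 and 0.59 in limma). For Irs1 the difference between the tables' differences was 0.28 (adjusted p = 0.57), whereas for Adpgk it was 1.10 (adjusted p = 0.00033) and for Fbp2 0.81 (adjusted p = 0.019 in limma). Adpgk was thus higher in BALB/C than in its sensitive strains, and had a difference of -0.12 in B6 minus NZW that did not pass the test (adjusted p = 0.47 in limma). The 3 probes of Adpgk share 1 row of the first table, and which of them the row corresponds to is not known. That row had mean log2 signals of 7.19 in BALB/C, 6.13 in DBA1, and 6.28 in 129/svj, within the range of the dim row of Pcx.

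The genes most like Pck1 over all 15 mice, after the mean of each table was removed, were D330001D04Rik (r = 0.86), Sap30l (r = 0.84), and Med25 (r = 0.82), out of 7470 probes compared. For Pcx, the most alike of 7471 was Slc37a4 (r = 0.94), which was looked at after the values were seen. The mice of a table were normalized together, so these correlations are descriptions. Within the table of BALB/C, DBA1, and 129/svj, Pcx and G6pc had a correlation of 0.88 over the 9 mice and of 0.18 after the strain means were removed, and Pcx and Fbp1 of 0.75 and 0.22. Pck1 had correlations of -0.10 to 0.05 with the other 4 members tested there, and after the strain means were removed of 0.63 with Pcx and of 0.04 to 0.09 with the other 3.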

How the data were processed

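Kidney cortex RNA on 18 Illumina Mouse WG-6 v1 arrays, taken as 15 mice, was compared. The authors deposited, per probe and array, a BeadStudio signal intensity without normalization and a detection p-value, with bead numbers, in 2 tables. The array methods refer to an earlier study, and no normalization is named. All signal columns belonged to these samples.

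Background was removed in each table by normexp in limma, with the noise inferred from the detection p-values and an offset of 16, before quantile normalization and log2. An offset compresses differences of dim probes. Arrays numbered 4 in BALB/C, DBA1, and 129/svj were averaged with array 1, since the study states 3 mice per group and these pairs had the highest correlations within their strain (0.987 to 0.989, other pairs 0.957 to 0.985). The file headers do not mark repeats. A probe was tested when 3 or more mice had a detection p-value of at most 0.05, with lmFit and eBayes (limma 3.58.1, R 4.3.3), 1 coefficient per strain, with Benjamini-Hochberg adjustment over all tested probes and a threshold of 0.05. Nothing states which mice shared a cage or a day. The p-values set a difference between strains against the spread of the mice within strains, and take no account of cage or day. The number of arrays limits the precision.

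Probes were matched by search key where the key occurred once in the table of BALB/C, DBA1, and 129/svj (28882 probes). List genes were read at their brightest probe. Symbols are those of the array design. Each of the 9 genes had a RefSeq promoter. The procedure was tested on simulated data. Tables were read with Python 3.11.15 and pandas 2.3.3, and figures drawn with matplotlib 3.10.9.

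All probes of the members are reported. By rule, the list genes described are the 5 largest called differences in B6 against NZW and up to 5 in the contrast of resistant and sensitive strains (8 entries, as only 3 genes were called in the latter), and the genes of like pattern are named for Pck1. Other called list and marker genes are named only to say which genes a count holds, and they and Slc37a4 were chosen after their values were seen. The members and lists were chosen with earlier results of these data known. The alternatives covered the background correction, the normalization, the filter on dim probes, the repeat arrays, the replicate number as a block, the methods' t-test, the variance model, and each mouse left out. A restriction to keys unique in both tables was added after seeing the data.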

Additional observations from a re-analysis of the deposited data

Results flagged for a closer look

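The difference between resistant and sensitive strains was not the same in the 2 tables for 3 of the members, by the test of that difference in limma. For Fbp1 it was larger by 0.97 on the log2 scale in BALB/C against its sensitive strains than in B6 against NZW (adjusted p = 0.0046, n = 3 mice per strain), and for G6pc by 0.88 (adjusted p = 0.0034). In both genes the BALB/C side was positive (0.33 and 0.44) and the B6 side negative (-0.63 and -0.44). For Fbp1, BALB/C passed no test against DBA1 or 129/svj (adjusted p of 0.17 and 0.74 in limma). For G6pc, BALB/C passed against DBA1 but not against 129/svj (adjusted p of 0.045 and 0.34 in limma). The call of G6pc between B6 and NZW was lost with any 1 mouse left out. For Pcx the difference between the tables' differences was 1.35 with ILMN_2427206 and 1.33 with ILMN_2748361 (adjusted p of 0.0025 and 0.0023 in limma), with a B6 side of 0.10 at ILMN_2748361 that passed no test. ILMN_2427206 was detected in no B6 or NZW mouse, and both pairs share 1 row of the first table. Without background correction the values for Pcx were 0.63 and 0.59. The calls of Fbp1 and G6pc held under all 12 alternatives, and that of Pcx at ILMN_2748361 under the 10 that tested it. Each held with any of the 15 mice left out. Pcx was not tested with probes detected in every mouse or with unique keys. The pair of ILMN_2427206 repeats the shared row, so its calls add nothing. The strains and the table cannot be told apart here. For Pcx, it is also not known which probe the shared row corresponds to, so unlike probes may be compared.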

How the results depend on the processing

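Counts of called members are given where they moved with 1 choice changed, in limma unless the methods' t-test is named. Between BALB/C and DBA1 the 2 called fell to 1 with probes detected in every mouse (4 tested), the second array left out, the replicate block, and the methods' t-test, and were 1 to 2 with a mouse left out. Between BALB/C and 129/svj the 0 called became 1, always Pcx, with an offset of 50, no background correction, 75th percentile scaling, joint quantile normalization, the second array left out, each array as its own mouse, and the replicate block, and were 0 to 1 with a mouse left out. Between DBA1 and 129/svj the 1 called became 0 with no background correction, probes detected in every mouse, no filter, and the methods' t-test, and 0 to 1 with a mouse left out. Between B6 and NZW the 3 called became 5 of 9 with 75th percentile scaling and 1 of 13 with no filter. They became 1 with the methods' t-test and 4 with no background correction or a robust variance trend. Joint normalization (8 tested) and the replicate block gave 2 each, and a mouse left out gave 1 to 3. The 75th percentile scaling moved the median of all probes to -0.13, with 1352 probes higher and 2269 lower in B6 (1550 and 1611 otherwise), and Pck1 at ILMN_2777986 and Pfkl were called there in addition. Over all probes, the methods' t-test called 398, 319, 217, and 1851 in the 4 comparisons within tables (limma 909, 764, 711, and 3161), each array as its own mouse 1718, 1276, and 1199 in the first 3, probes detected in every mouse 587, 466, and 368 there and 746 in the mean over the tables (1535 otherwise), unique keys 918 in that mean, and joint normalization 1120 in B6 against NZW, where 12011 probes were tested. In the mean over the tables the 2 called (pairs of Pcx that share 1 row) became 0 with probes detected in every mouse and with keys unique in both tables, a choice made after seeing the data, since Pcx was not tested there, and were 2 with any mouse left out.

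Over probes and tables, 31 of the 40 differences kept their sign under every alternative and with every mouse left out. The signs that turned belonged to differences that passed no test. These were Pck1 in BALB/C minus DBA1 (0.015 with each array as its own mouse, -0.36 to 0.10 with a mouse left out), in BALB/C minus 129/svj (-0.18 to 0.30 with a mouse left out), and in DBA1 minus 129/svj (-0.061 to 0.41). They were also Hk1 (-0.11 with 75th percentile scaling, -0.034 to 0.23 with a mouse left out), Ldha (-0.11 to 0.011), and Pcx (-0.071 with 75th percentile scaling) in B6 minus NZW. G6pc in the mean over the tables was -0.074 with 75th percentile scaling, -0.037 with joint normalization, -0.020 with the second array left out, and -0.032 to 0.055 with a mouse left out. Between the tables' differences, Hk1 at ILMN_2644025 was 0.054 with an offset of 50 and -0.21 to 0.037 with a mouse left out, and at ILMN_1221051 -0.019 to 0.25. The causes were not tested.

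Mice of equal number deviated together no more than others (correlations of -0.26 to 0.39 over 9 pairs in the first table, against -0.42 to 0.40, and of -0.073 to 0.011 over 3 pairs in the second, against -0.021 to 0.082), so the numbers were not taken as pairs. With the replicate block, G6pc was not called in BALB/C against DBA1 (adjusted p = 0.056) or in B6 against NZW (adjusted p = 0.089), Pcx was called in BALB/C against 129/svj (adjusted p = 0.044), and the called members were 1, 1, 1, 2, and 2 in the 5 comparisons, in limma. At most 36.4% of the probes of an array were detected, and the second probes of Pcx and Hk1 and most probes of Pklr lay near the background.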
